A study of Mus musculus with 24 samples.

Results

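The genes described here are the channels, pumps and sensors of the endoplasmic reticulum calcium store: the ryanodine receptors Ryr1, Ryr2 and Ryr3, the inositol trisphosphate (IP3) receptors Itpr1, Itpr2 and Itpr3, the calcium pumps Atp2a2 and Atp2a3, and the calcium sensors Stim1 and Stim2. They were taken by symbol from the deposited table, which lists 54532 genes, and all 10 passed the filter on low counts that left 19667 genes for testing. RNA was sequenced from the striatum of 24 C57BL/6 mice, 1 library per animal as the labels name animals, with 6 libraries per genotype of which 3 came from males and 3 from females. The WT group carried neither altered allele, the TyrobpKO group had Tyrobp deleted, the Q175 group was heterozygous for the Q175 allele, and the Q175_TyrobpKO group combined both. Q175 is a knock-in allele of Htt, the huntingtin gene, with an expanded CAG repeat, used to model Huntington's disease, and Tyrobp codes for DAP12, an adaptor protein of microglia. The deletion was labelled by genotype only, with no driver or cell type restriction named, and age was not stated. Animal numbers of both deletion genotypes shared a prefix that no other animal had, and Q175 animals shared theirs with WT replicate 3 only. Whatever these prefixes mark and the Tyrobp genotype cannot be told apart.

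Neurons keep calcium in the endoplasmic reticulum and release it through 2 families of large channels. Ryanodine receptors open in response to calcium itself or, in muscle, to a voltage sensor; Ryr1 is the skeletal muscle form, Ryr2 the cardiac form, and all of them are found in brain. IP3 receptors open when receptors at the cell surface activate phospholipase C. The SERCA pumps encoded by Atp2a2 and Atp2a3 refill the store, and the STIM proteins sense its depletion and open calcium channels in the plasma membrane. Itpr1 is known for its abundance in striatal projection neurons, the cells most affected in Huntington's disease.

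Libraries held 25.5 to 34.6 M counted reads, and each member had 1077 reads or more per genotype. Tyrobp, the deleted gene, lay between 6.56 and 9.89 CPM (counts per M counted reads, with library sizes scaled by the TMM method) in WT and between 5.69 and 11.8 CPM in Q175. It lay between 0.214 and 0.448 CPM in TyrobpKO and between 0.218 and 0.323 CPM in Q175_TyrobpKO, below every library labelled as having the gene. Marker genes of striatal projection neurons were abundant in every library, with a summed level of 3899 to 10107 CPM over 12 genes. Cortical excitatory neuron markers (8 genes, 53.1 to 966 CPM) and choroid plexus markers (8 genes, 25.9 to 4149 CPM) varied between libraries within genotypes, the highest choroid plexus sum being that of Q175 replicate 3; 3 of the 8 choroid plexus markers passed as higher in Q175 vs WT.

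Promoter sequence upstream of the annotated start was found for 7 of the 10 members in RefSeq (GRCm38.p6), and 4 are printed. Ryr1 and its paralog Ryr2 were taken because only the first of the pair passed the test. Itpr3 and Stim1 were taken because Itpr3 passed as lower in Q175 vs WT and Stim1 as higher in Q175_TyrobpKO vs TyrobpKO. In no contrast did both Itpr3 and Stim1 pass. Each runs 5′ to 3′ on the gene's strand and ends just before the gene. Capitals mark matches on either strand to 5 motifs: the GC box, spelled GGGCGG; the TATA box, which reads TATAAA; the cAMP response element, written as TGACGTCA; the E-box, in the form CACGTG; and the CCAAT box, searched by those letters. No matches overlap in the printed windows.
Ryr1, chr7:29125180-29125401, minus strand: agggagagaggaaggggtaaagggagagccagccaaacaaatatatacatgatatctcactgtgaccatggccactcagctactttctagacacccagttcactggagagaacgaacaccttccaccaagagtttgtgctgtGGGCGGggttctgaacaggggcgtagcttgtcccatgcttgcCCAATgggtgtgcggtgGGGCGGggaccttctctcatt
Ryr2, chr13:12106946-12107195, minus strand: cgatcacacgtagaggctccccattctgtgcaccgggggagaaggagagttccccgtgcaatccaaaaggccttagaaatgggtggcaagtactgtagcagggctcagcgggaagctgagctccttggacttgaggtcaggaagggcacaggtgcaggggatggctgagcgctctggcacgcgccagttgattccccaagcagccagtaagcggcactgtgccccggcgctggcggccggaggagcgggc
Itpr3, chr17:27057054-27057303, plus strand: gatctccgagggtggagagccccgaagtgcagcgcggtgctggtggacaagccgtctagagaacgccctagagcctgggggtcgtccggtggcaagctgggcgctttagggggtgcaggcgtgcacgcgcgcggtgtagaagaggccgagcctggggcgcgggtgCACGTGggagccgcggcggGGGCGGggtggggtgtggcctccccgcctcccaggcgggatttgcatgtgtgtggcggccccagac
Stim1, chr7:102267569-102267805, plus strand: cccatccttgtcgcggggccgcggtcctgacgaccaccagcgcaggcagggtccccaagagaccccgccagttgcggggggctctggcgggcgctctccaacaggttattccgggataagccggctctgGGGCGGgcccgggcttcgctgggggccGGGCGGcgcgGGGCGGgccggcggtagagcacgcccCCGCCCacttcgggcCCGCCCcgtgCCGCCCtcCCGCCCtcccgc
The Ryr1 window of 222 bases held 2 GC boxes and 1 CCAAT box, and 28.8% and 31.2% of all RefSeq promoters cut to that length held at least 1 of them. The Ryr2 window held none of the 5 motifs. The Itpr3 window held 1 GC box and 1 E-box, which 32.7% and 6.02% of promoters of the same length held. The Stim1 window held 7 GC boxes, and 30.9% of promoters of its length held at least 1. GC content was 53.6% for Ryr1, 63.2% for Ryr2, 72.0% for Itpr3 and 78.1% for Stim1, and 55.2% of promoters had a lower GC content than that of Ryr1 against 97.9% for Stim1. These matches describe the letters only.

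To compare levels between genes, CPM was divided by the gene length in the deposited table. In WT the SERCA pump gene Atp2a2 was highest at 199.95 ± 10.46 CPM per kb (mean ± SD, n = 6), followed by Itpr1 at 84.1 ± 8.30 CPM per kb. Ryr3 (16.3 ± 2.74), Stim2 (15.9 ± 0.667) and Stim1 (11.9 ± 0.656) came next, then Ryr2 (7.31 ± 1.01) and Ryr1 (6.76 ± 0.819), all in CPM per kb. Itpr2 (1.92 ± 0.112), Atp2a3 (1.64 ± 0.200) and Itpr3 (0.966 ± 0.136) were lowest on that scale. Neighbours in this order differed by less than the sum of their SDs for Ryr3 and Stim2, for Ryr2 and Ryr1, and for Itpr2 and Atp2a3. With the length of the longest annotated transcript in place of the deposited length, Stim1 (28.2 CPM per kb) lay above Stim2 (16.6) and Ryr3 (19.9), so the order within this middle group depends on the length used.

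Ryr1 (ENSMUSG00000030592, chr7:29003344-29125179 in GRCm38, as are all positions given here, minus strand) was lower in every genotype than in WT, and was the member with the largest changes. In WT its level ranged from 117 to 163.3 CPM with a median of 152 CPM. It ranged from 31.3 to 48.4 CPM (median 34.1) in TyrobpKO and from 22.8 to 39.1 CPM (median 34.1) in Q175. In Q175_TyrobpKO it ranged from 13.2 to 20.4 CPM with a median of 19.9 CPM. All 18 libraries with an altered allele thus lay below all 6 WT libraries, all Q175_TyrobpKO libraries lay below all others, and TyrobpKO and Q175 overlapped. Bulk RNA does not separate fewer cells of a type from less RNA per cell, and these cannot be told apart for any member.

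The fall of Ryr1 from WT to Q175 was 4.56-fold, a log2 fold change of -2.19 ± 0.14 (SE; adjusted p = 9.91e-10 by edgeR's quasi-likelihood test), the seventh smallest p of the 19667 genes tested. From WT to TyrobpKO it fell 4.03-fold (log2 fold change -2.01 ± 0.14, adjusted p = 6.64e-09), and only 1 other gene, Tyrobp, had a log2 fold change as low in that contrast. Adding the deletion to Q175 lowered Ryr1 1.80-fold (-0.85 ± 0.14, adjusted p = 0.00533), and adding Q175 to the deletion lowered it 2.04-fold (-1.03 ± 0.14, adjusted p = 9.04e-05). The contrasts against WT share the 6 WT libraries, so the similar sizes of the first 2 values are not independent. With females only, the Q175_TyrobpKO vs Q175 difference of Ryr1 was -0.84 but did not pass (adjusted p = 0.821, the highest over the alternatives; the lowest was 1.73e-07, with DESeq2).

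As a mean, Ryr1 stood at 21.9% of its WT level in Q175, at 24.9% in TyrobpKO and at 12.2% in Q175_TyrobpKO. The mean of 18.0 ± 3.29 CPM in Q175_TyrobpKO compares with 8.07 CPM, the value that the product of the separate Q175 and TyrobpKO ratios would give. The interaction of the alleles for Ryr1 was 1.16 ± 0.20 on the log2 scale (95% confidence interval 0.76 to 1.57), the smallest p of all genes tested, but its adjusted p of 0.123 did not pass. No gene passed in the interaction with edgeR (707 genes, 3.59%, had an unadjusted p under 0.05), 2 passed with DESeq2 and 0 with limma-voom. Ryr1 passed with DESeq2 (adjusted p = 7.22e-06; 0.095 with limma-voom), and with edgeR when WT replicate 5, TyrobpKO replicate 6 or Q175_TyrobpKO replicate 1 was left out, while the largest adjusted p over the alternatives was 1.0, with females only.

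**Figure D1:**
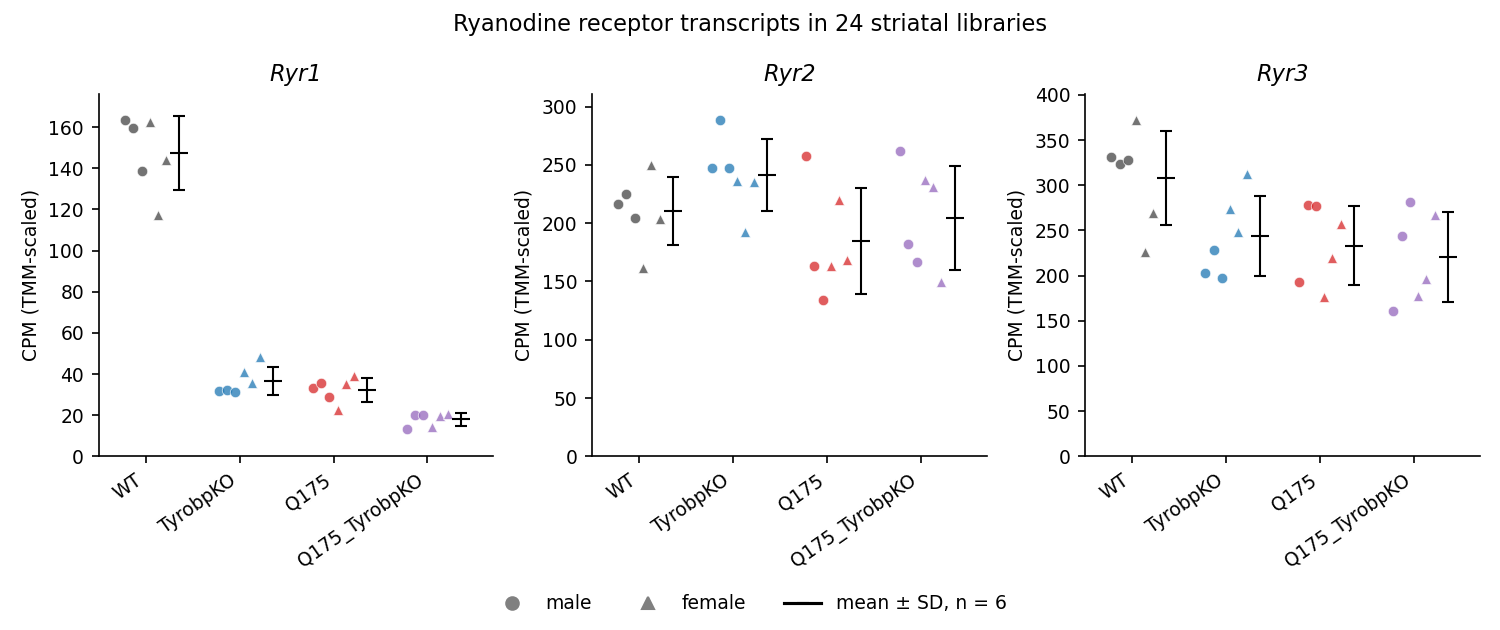
Level of Ryr1, Ryr2 and Ryr3 (CPM, TMM-scaled, linear axis from 0) in each of the 24 libraries by genotype; circles are males, triangles females, and the black bar is the mean ± SD of 6 libraries. Ryr1 lies between 117 and 163.3 CPM in WT and at or below 48.4 CPM in every other library, whereas the genotypes overlap for Ryr2 and Ryr3.

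Ryr2 (ENSMUSG00000021313, chr13:11553102-12106945) did not pass in any contrast. It ranged from 162 to 250 CPM (median 211) in WT and from 192 to 288 CPM (median 242) in TyrobpKO. With the Q175 allele it ranged from 134 to 257 CPM (median 166) alone and from 149.6 to 262 CPM (median 206) beside the deletion. All 4 ranges overlap. The log2 fold change of Ryr2 was -0.19 (95% confidence interval -0.51 to 0.13) in Q175 vs WT and 0.19 (-0.13 to 0.52) in TyrobpKO vs WT.

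Ryr3 (ENSMUSG00000057378, chr2:112631355-113217096) lay between 226 and 372 CPM (median 326) in WT, between 197 and 313 CPM (median 238) in TyrobpKO, between 176 and 278 CPM (median 238) in Q175 and between 161 and 281 CPM (median 220) in Q175_TyrobpKO. Its log2 fold change was -0.40 ± 0.16 (adjusted p = 0.130) in Q175 vs WT and -0.34 ± 0.16 (adjusted p = 0.749) in TyrobpKO vs WT, and neither passed. Exons of Ryr3 share 916 bases with Aven on the opposite strand, whose reads equal 3.88% of those of Ryr3. The WT library with the lowest Ryr3, replicate 5 at 226 CPM, was also the lowest WT library for Ryr1 (117 CPM) and Itpr1 (1293 CPM). TyrobpKO replicate 6 was the highest of its group for the same genes, at 313 CPM for Ryr3, 48.4 CPM for Ryr1 and 1580 CPM for Itpr1. In WT replicate 5 the summed projection neuron markers were the lowest of WT (6328 CPM) and the cortical excitatory sum the highest (720.0 CPM). In TyrobpKO replicate 6 the first sum was the highest of its group (9583 CPM) and the second the lowest (445 CPM). The part of tissue composition in these levels was not tested.

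On the per-length scale Ryr1 made up 22.3 ± 1.27% of the summed ryanodine receptor level in WT (range 20.7 to 23.7%). Its share was 7.32 ± 0.684% in TyrobpKO, 7.31 ± 0.766% in Q175 and 4.19 ± 0.577% in Q175_TyrobpKO, and no library of those groups exceeded 8.45%. Ryr3 held the largest mean share in each genotype, from 53.3% in WT to 60.7% in Q175. The summed level of the family was 30.3 ± 2.78 CPM per kb for WT, against 22.9 ± 2.53 for TyrobpKO, 20.2 ± 2.12 for Q175 and 19.6 ± 1.29 for Q175_TyrobpKO. These shares are a description, and the difference between paralogs was not tested.

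Ryr1 lies on chromosome 7, and its start is 1.41 Mb from that of Tyrobp, the deleted gene; Ryr2 is on chromosome 13 and Ryr3 on chromosome 2. Besides Ryr1, 150 tested genes start within 2 Mb of the Ryr1 start. In TyrobpKO vs WT, 11 of these 150 (7.33%) passed, Tyrobp among them, against 11 of 19516 tested genes elsewhere (0.0564%). In Q175_TyrobpKO vs Q175 it was again 11 of 150 (7.33%), against 19 of 19516 (0.0974%). In Q175 vs WT, in which neither group carries the deletion, 19 of 150 (12.7%) passed against 9.60% elsewhere.

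The genes of the window that passed in TyrobpKO vs WT moved in both directions. Beside Tyrobp (log2 fold change -4.52), Sipa1l3 (-0.71), Zfp420 (-0.55), Lgals4 (-1.24), Sbsn (-1.18) and Dmkn (-1.67) fell, and Zfp14 (1.17), Arhgap33os (3.17), Gm10648 (2.53), Gm44954 (1.05) and Hspb6 (0.62) rose. Of the 24 fits that leave out a single library, 21 lost the call of Hspb6 (adjusted p up to 0.261), 6 that of Gm10648, 5 that of Lgals4 and 3 that of Gm44954. With only the 12 libraries compared, Hspb6, Lgals4, Gm44954 and Sbsn did not pass (adjusted p = 0.284, 0.0631, 0.0554 and 0.0645). In Q175_TyrobpKO vs Q175, 9 of these 11 passed with the same sign, while Hspb6 (0.067) and Sbsn (-0.44) did not pass. Sipa1l3 lost its call there in 7 of the 24 fits without a single library (adjusted p up to 0.0966). With only the 12 libraries compared, Sipa1l3 and Lgals4 did not pass there (adjusted p = 0.0548 for each). None of the 6 tested genes nearest to Ryr1, 3 on each side, passed in TyrobpKO vs WT: Gm44699 (-0.26), Eif3k (0.12), Map4k1 (-0.16), Gm26604 (0.034), Rasgrp4 (-0.33) and Fam98c (-0.28). In Q175 vs WT, 1 of the 6 passed: Fam98c was lower by 0.39 on the log2 scale (adjusted p = 0.00113), with no overlap between the groups. Gm26604 lies antisense inside Ryr1 and shares 864 exon bases with it; its 354 reads over all libraries equal 0.900% of the 39323 reads of Ryr1. Whether counting used strand is not given in the sources used here, so reads of the shared bases cannot be assigned. Stim1, the other member on this chromosome, starts 73.3 Mb from Ryr1 and did not pass in either contrast of the deletion. Whether position near Tyrobp bears on Ryr1 was not tested.

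**Figure D2:**
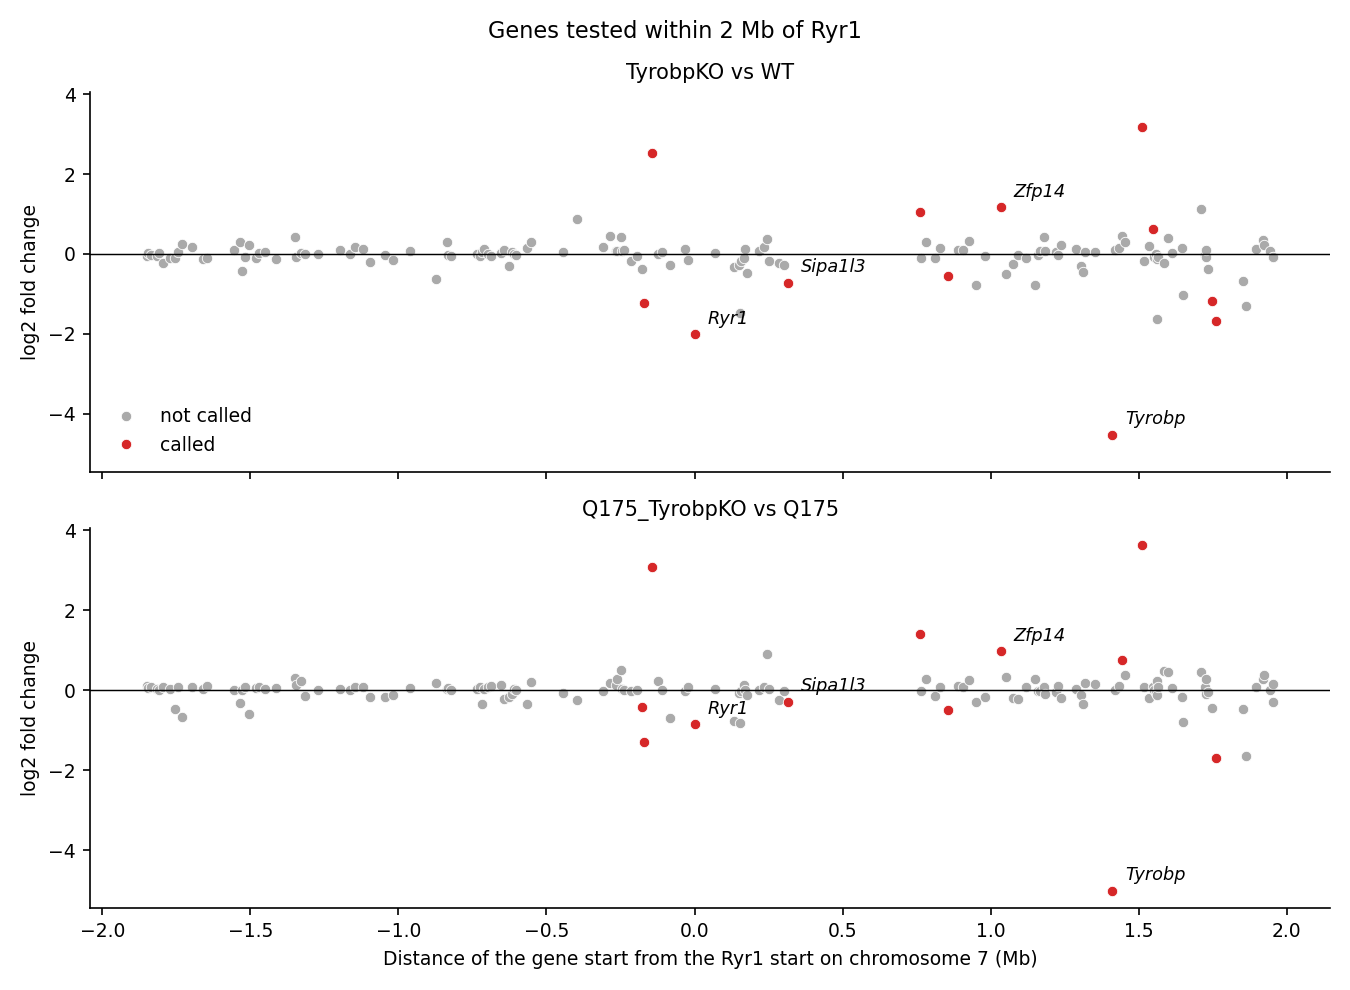
Log2 fold change of Ryr1 and the 150 other tested genes that start within 2 Mb of it, against the distance of their start from the Ryr1 start in Mb, for TyrobpKO vs WT (top) and Q175_TyrobpKO vs Q175 (bottom); red points passed at an adjusted p under 0.05. Red points lie on both sides of 0 and Tyrobp, at 1.41 Mb, is the lowest in each panel.

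Among the IP3 receptors, Itpr1 and Itpr3 fell with the Q175 allele and Itpr2 did not pass. Itpr1 (ENSMUSG00000030102, chr6:108213096-108551109), the main neuronal form, ranged from 1293 to 1733 CPM (median 1586) in WT and from 994 to 1114 CPM (median 1075) in Q175, with no overlap. It ranged from 1238 to 1580 CPM (median 1324) in TyrobpKO and from 982 to 1141 CPM (median 1033) in Q175_TyrobpKO, again with no overlap between this pair. The fall was 1.45-fold in Q175 vs WT (log2 fold change -0.53 ± 0.07, adjusted p = 4.05e-06) and 1.29-fold in Q175_TyrobpKO vs TyrobpKO (-0.37 ± 0.07, adjusted p = 9.52e-04). The deletion gave -0.19 ± 0.07 (adjusted p = 0.749) for Itpr1 without the Q175 allele and -0.023 ± 0.067 (adjusted p = 0.963) with it. With males only, Itpr1 did not pass in Q175_TyrobpKO vs TyrobpKO (-0.26, adjusted p = 0.154); the largest adjusted p with a single library left out was 0.00531.

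Itpr3 (ENSMUSG00000042644, chr17:27057304-27122223) was the lowest member per length in each genotype, with 1077 to 1481 reads per genotype. It ranged from 6.78 to 9.83 CPM (median 9.19) in WT and from 4.81 to 8.42 CPM (median 6.32) in Q175, and these ranges overlap. In TyrobpKO it ranged from 7.66 to 9.89 CPM (median 8.69) and in Q175_TyrobpKO from 5.26 to 8.41 CPM (median 7.21). Itpr3 fell 1.37-fold in Q175 vs WT (-0.45 ± 0.12, adjusted p = 0.0183), a call that was lost without WT replicate 6 (adjusted p = 0.0509) or Q175 replicate 4 (adjusted p = 0.0515), and whose adjusted p reached 0.484 with males only. In Q175_TyrobpKO vs TyrobpKO it was -0.31 ± 0.12 (adjusted p = 0.147), which did not pass.

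Itpr2 (ENSMUSG00000030287, chr6:146108299-146502223), the form typical of astrocytes, ranged from 25.6 to 30.8 CPM (median 28.4) in WT and from 19.9 to 31.9 CPM (median 28.7) in Q175. It ranged from 30.2 to 33.0 CPM (median 32.6) in TyrobpKO and from 24.98 to 32.0 CPM (median 26.6) in Q175_TyrobpKO. The log2 fold change of Itpr2 was -0.033 (adjusted p = 0.869) in Q175 vs WT and -0.22 (adjusted p = 0.118) in Q175_TyrobpKO vs TyrobpKO. In the latter contrast Itpr2 passed as lower with only the 12 libraries compared (adjusted p = 0.0425) and without Q175 replicate 4 (0.0272). Per length, Itpr1 held 95.6 to 96.7% of the summed IP3 receptor level as a mean in each genotype, so that sum fell with it, from 87.0 ± 8.31 CPM per kb in WT to 60.7 ± 3.02 in Q175.

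The SERCA pump gene Atp2a2 (ENSMUSG00000029467, chr5:122453513-122502225) also fell with the Q175 allele, whether or not Tyrobp was present. It ranged from 1096 to 1285 CPM (median 1229) in WT and from 833 to 1096 CPM (median 940.0) in Q175, where the highest Q175 library met the lowest WT library. It ranged from 1147 to 1274 CPM (median 1190) in TyrobpKO and from 897 to 1056 CPM (median 971) in Q175_TyrobpKO, with no overlap. The fall was 1.26-fold in Q175 vs WT (-0.34 ± 0.06, adjusted p = 4.80e-04) and 1.24-fold in Q175_TyrobpKO vs TyrobpKO (-0.31 ± 0.06, adjusted p = 0.00199). In the contrasts of the deletion Atp2a2 was -0.017 (95% confidence interval -0.14 to 0.11) without the Q175 allele and 0.0090 (-0.12 to 0.13) with it. With females only Atp2a2 did not pass in Q175 vs WT (-0.26, adjusted p = 0.217), and in Q175_TyrobpKO vs TyrobpKO it passed neither with males (adjusted p = 0.213) nor with females only (0.0752).

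Atp2a3 (ENSMUSG00000020788, chr11:72961169-72993044), the pump known from blood cells and endothelium, ranged from 7.63 to 10.52 CPM (median 8.60) in WT and from 6.597 to 9.18 CPM (median 8.07) in TyrobpKO. Libraries with the Q175 allele ranged from 7.14 to 10.7 CPM (median 7.82) alone and from 7.30 to 9.18 CPM (median 8.11) with the deletion, so all groups overlap. It passed in no contrast, and its log2 fold change in Q175 vs WT was -0.022 (95% confidence interval -0.25 to 0.21). Per length it made up 0.812% of the summed level of both pumps in WT and 1.03% in Q175.

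Of the STIM sensors, Stim1 (ENSMUSG00000030987, chr7:102267806-102437319) was the only member to rise. It ranged from 112 to 129 CPM (median 117) in TyrobpKO and from 129 to 147 CPM (median 133) in Q175_TyrobpKO, and the ranges met only at their edges. It ranged from 114 to 130 CPM (median 126) in WT and from 118 to 140 CPM (median 133) in Q175. Stim1 was 1.14-fold higher in Q175_TyrobpKO vs TyrobpKO (0.19 ± 0.05, adjusted p = 0.0250) and did not pass in Q175 vs WT (0.090 ± 0.052, adjusted p = 0.324). The difference between these contrasts, the interaction, for Stim1 was 0.10 ± 0.07 (adjusted p = 0.999). The rise of Stim1 did not pass when TyrobpKO replicate 1, 3 or 5 or Q175_TyrobpKO replicate 2 or 3 was left out (largest adjusted p 0.0743) or without the filter on low counts (0.0685), and its adjusted p reached 0.635 with females only.

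Stim2 (ENSMUSG00000039156, chr5:53998499-54121057), the sensor that responds to smaller losses of store calcium, ranged from 75.7 to 86.1 CPM (median 82.5) in WT and from 80.6 to 96.5 CPM (median 84.6) in TyrobpKO. It ranged from 61.5 to 90.0 CPM (median 77.6) in Q175 and from 70.0 to 81.5 CPM (median 76.8) in Q175_TyrobpKO, overlapping the other groups. It passed in no contrast; its lowest adjusted p was 0.137, in Q175_TyrobpKO vs TyrobpKO (-0.18 ± 0.07). With only the 12 libraries compared Stim2 passed there as lower (adjusted p = 0.0402). Per length, Stim2 held 57.3 ± 2.11% of the summed STIM level in WT and 53.2 ± 1.81% in Q175_TyrobpKO.

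**Figure D3:**
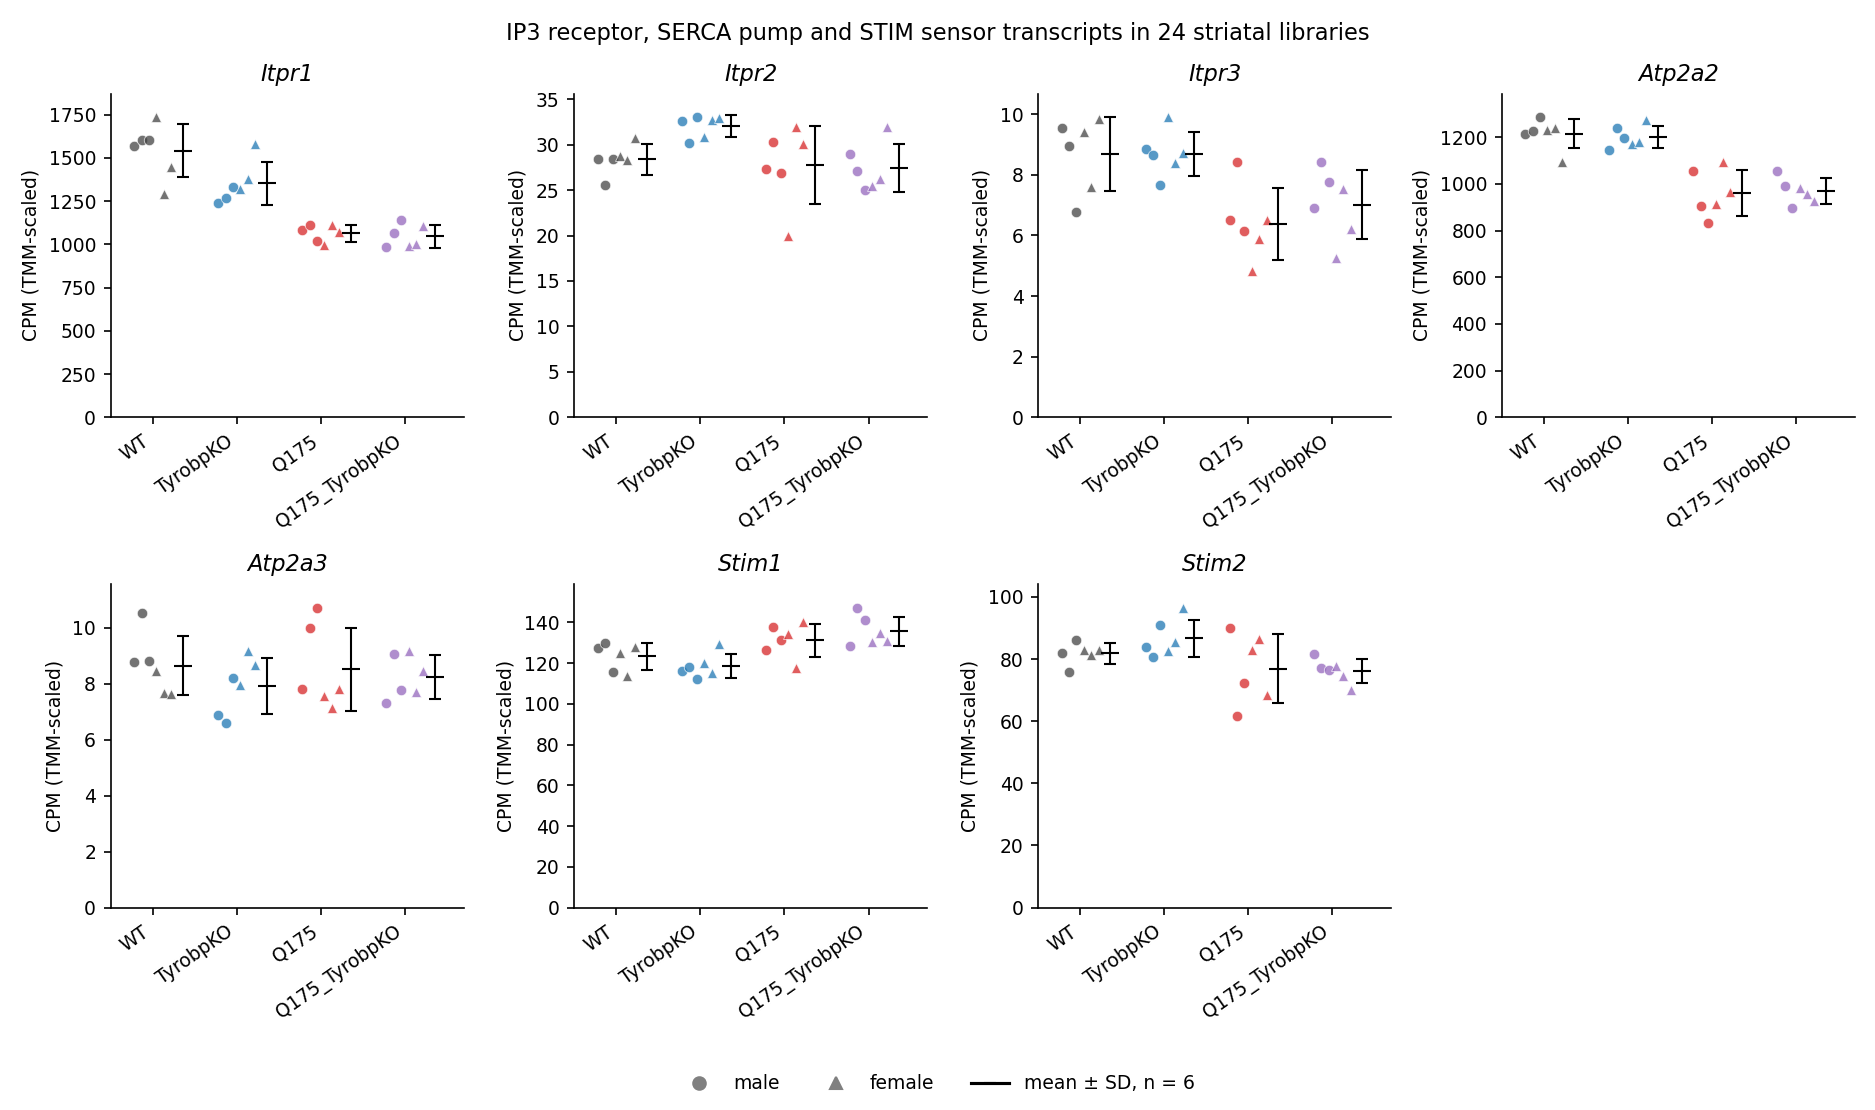
Level of the IP3 receptors, SERCA pumps and STIM sensors (CPM, TMM-scaled, linear axes from 0 that differ between panels) in each of the 24 libraries by genotype; circles are males, triangles females, and the black bar is the mean ± SD of 6 libraries. Itpr1 and Atp2a2 lie lower in both genotypes with the Q175 allele, at 1047 to 1065 CPM for Itpr1 and 962 to 968 CPM for Atp2a2 as means, against 1352 to 1541 and 1202 to 1216 CPM without it.

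Counted together, 4 of the 10 members passed in Q175 vs WT, all lower (Ryr1, Itpr1, Itpr3 and Atp2a2), where 5.47% of all genes tested passed as lower and 9.63% in either direction. In 2 members the 6 Q175 libraries all lay below the 6 WT libraries, as they did for 2.39% of all genes. In Q175_TyrobpKO vs TyrobpKO 4 members passed, with Ryr1, Itpr1 and Atp2a2 lower and Stim1 higher, where 3.08% of all genes passed as lower and 2.78% as higher. In 3 members those groups did not overlap and were lower, against 2.27% of all genes. These 2 contrasts share no library, and 3 members, Ryr1, Itpr1 and Atp2a2, passed as lower in both. The share of all genes that passed as lower in both contrasts is not given here. Without Q175 replicate 3, the library with the highest choroid plexus sum, 4 members passed in each. With only the 12 libraries compared, 3 members passed in Q175 vs WT and 6 in Q175_TyrobpKO vs TyrobpKO.

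In TyrobpKO vs WT, 1 of 10 members passed and was lower without overlap, where 0.0712% of all genes passed as lower and 0.203% were lower without overlap. In Q175_TyrobpKO vs Q175 it was again 1 of 10 and without overlap, where 0.112% of all genes passed as lower and 0.300% were lower without overlap. That member was Ryr1 in both; of the other 9 members the smallest adjusted p was 0.749 and 0.875 in these contrasts. The median log2 fold change of the 10 members was -0.26 in Q175 vs WT and -0.23 in Q175_TyrobpKO vs TyrobpKO, against 0.0073 and -0.0019 over all genes tested. It was -0.037 in TyrobpKO vs WT and -0.014 in Q175_TyrobpKO vs Q175.

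**Figure D4:**
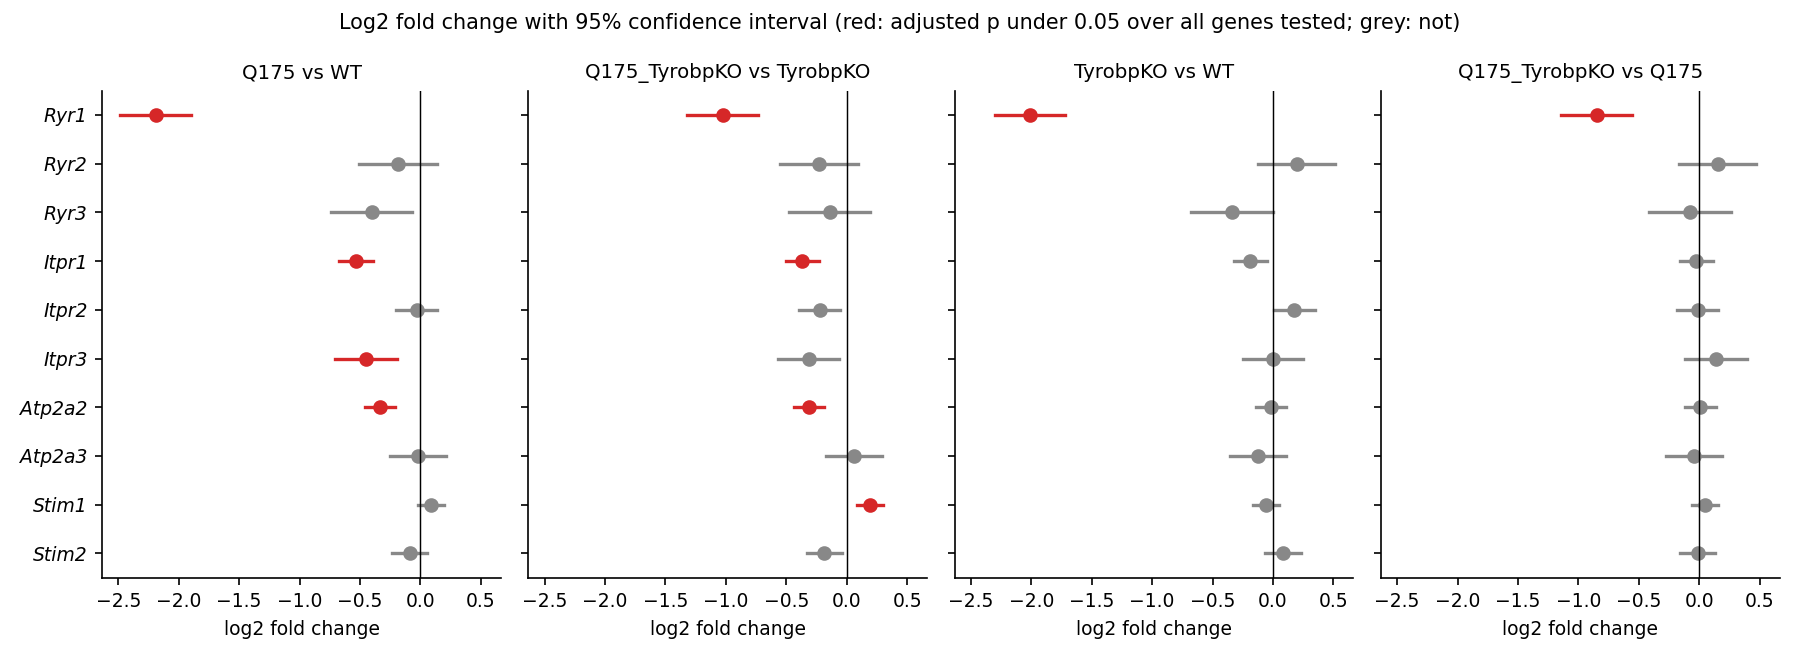
Log2 fold change (x axis) of the 10 members (y axis) with its 95% confidence interval in each genotype contrast; red marks an adjusted p under 0.05 over all genes tested. Ryr1 is red in all 4 panels, from -2.19 to -0.85, and the other red points lie in the contrasts of the Q175 allele, between -0.53 and 0.19.

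No member differed between females and males averaged over genotypes (0 of 10, smallest adjusted p 0.999), where 0.0814% of all genes tested passed. For Ryr1 the female vs male log2 difference was 0.072 (95% confidence interval -0.13 to 0.27). The difference between the sexes in each genotype contrast was tested too, and no member and no gene passed in any of the 4 with edgeR (747, 1558, 1217 and 833 genes had an unadjusted p under 0.05 for Q175 vs WT, TyrobpKO vs WT, Q175_TyrobpKO vs Q175 and Q175_TyrobpKO vs TyrobpKO). In TyrobpKO, Ryr1 was 31.8 ± 0.606 CPM in the 3 males and 41.8 ± 6.32 CPM in the 3 females, against 154 ± 13.2 and 141 ± 22.6 CPM in WT, and the difference of the TyrobpKO effect between the sexes was 0.52 ± 0.26 (adjusted p = 0.647).

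Markers of striatal projection neurons also moved, mainly in the contrasts of the Q175 allele. Of the 12 markers, 10 passed as lower in Q175 vs WT and 4 in Q175_TyrobpKO vs TyrobpKO, with median log2 fold changes of -0.66 and -0.47. In TyrobpKO vs WT all 12 had a negative sign and none passed (median -0.29), and in Q175_TyrobpKO vs Q175 none passed (median -0.066). Their summed level was 6328 to 10107 CPM in WT, 5887 to 9583 in TyrobpKO, 4543 to 6093 in Q175 and 3899 to 6306 in Q175_TyrobpKO. The part of this in the changes of Ryr1, Itpr1 and Atp2a2 was not tested.

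Markers of other cell types moved too. The summed level of 7 astrocyte markers was 3777 to 4166 CPM in WT and 2879 to 3549 CPM in Q175, without overlap. In the absence of Tyrobp it was 3920 to 4175 CPM in TyrobpKO and 3031 to 3495 CPM in Q175_TyrobpKO, again without overlap. This sum mostly follows Slc1a2, which had 1863060 reads over all libraries, against 318546 for Slc1a3, the next highest. All 7 markers had a negative sign in both contrasts of the Q175 allele. The median log2 fold change was -0.093 in Q175 vs WT, where 1 passed, and -0.20 in Q175_TyrobpKO vs TyrobpKO, where 2 passed. In the latter contrast 2 of 8 oligodendrocyte markers and 3 of 10 endothelial and mural markers also passed as lower. There 3.08% of all genes passed as lower. None of either list passed in Q175 vs WT, and all 8 oligodendrocyte markers had a positive sign in TyrobpKO vs WT (median 0.14, none passed). The sum of 7 striatal interneuron markers was 395 to 440 CPM in WT and 360 to 391 CPM in Q175, though none passed. The part of these in the changes of Ryr1, Itpr1, Atp2a2, Itpr3 and Stim1 was not tested. Cortical excitatory markers had a positive sign for 8 of 8 genes in TyrobpKO vs WT (median 0.82, none passed). Their sum was 445 to 966 CPM in TyrobpKO against 75.5 to 720.0 CPM in WT. All 8 were positive in Q175_TyrobpKO vs Q175 too (median 0.43, none passed). All 7 microglia markers had a negative sign in TyrobpKO vs WT (median -0.10) and in Q175_TyrobpKO vs Q175 (median -0.17), and none passed. The part of cortical and microglia markers was not tested either. The 8 markers of skeletal muscle, the tissue in which Ryr1 is best known, summed to between 4.39 and 10.3 CPM per library. The 4 of them that passed the filter on low counts had a positive sign in TyrobpKO vs WT; 2 of the 4 were negative in Q175 vs WT and 3 in Q175_TyrobpKO vs TyrobpKO (median log2 fold change -0.27), and none passed in any contrast of genotypes.

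Other genes of calcium store handling were taken from 6 lists, of which 115 genes besides the members were tested. In Q175 vs WT 24 of them passed (20.9%), 17 lower and 7 higher, beside 9.63% of all genes. In Q175_TyrobpKO vs TyrobpKO 13 passed (11.3%), 9 lower and 4 higher, beside 5.86% of all genes. Of the 115 genes, 12 passed in both, each with the same sign, and the share of all genes that did so is not given here. None passed in TyrobpKO vs WT or in Q175_TyrobpKO vs Q175 with edgeR or DESeq2, where 0.117% and 0.158% of all genes passed with edgeR; 9 and 7 of the 115 had an unadjusted p under 0.05. None passed in the interaction with edgeR, where 2 of them had an unadjusted p under 0.05. With females only, none of the list genes chosen by rule for Q175 vs WT passed there, at adjusted p from 0.0685 for Homer1 to 0.704 for Tmem110. With males only, none of those chosen for Q175_TyrobpKO vs TyrobpKO passed there, at adjusted p from 0.115 for Tmem110 to 0.383 for Plcb1. The lists' median log2 fold change was -0.024 in Q175 vs WT and -0.043 in Q175_TyrobpKO vs TyrobpKO.

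Of 29 tested partners of ryanodine receptors, 5 were lower and 2 higher in Q175 vs WT with edgeR. Homer1, a postsynaptic scaffold protein that binds store channels, ranged from 271 to 461 CPM in WT and from 191 to 272 CPM in Q175, overlapping by a single value at each edge, and fell by 0.70 on the log2 scale (adjusted p = 5.47e-05). It also fell in Q175_TyrobpKO vs TyrobpKO (-0.62, adjusted p = 4.74e-04), where 2 partners were lower and none higher. Casq2, which encodes the calcium buffer calsequestrin inside the store, fell from 7.72 ± 1.27 to 4.76 ± 0.962 CPM (-0.70, adjusted p = 0.00244). Selenon, a selenoprotein of the endoplasmic reticulum, rose from 16.6 ± 1.73 to 22.8 ± 1.40 CPM (0.46, adjusted p = 0.00158). Stac3, an adaptor of muscle excitation-contraction coupling named here after its values were seen, fell by 0.82 in Q175 vs WT (adjusted p = 0.0394).

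Of 31 tested genes of IP3 signalling, 6 were lower and none higher in Q175 vs WT, and 3 were lower and 1 higher in Q175_TyrobpKO vs TyrobpKO. Itpka, a kinase that removes IP3 by phosphorylating it, fell from 128 ± 11.5 to 96.9 ± 11.3 CPM (-0.41, adjusted p = 1.93e-04). Plcb1, a phospholipase C that makes IP3, fell from 527 ± 49.5 to 390 ± 48.2 CPM (-0.44, adjusted p = 7.06e-04) and from 475 ± 60.5 to 365 ± 24.98 CPM in the absence of Tyrobp (-0.38, adjusted p = 0.00488). The gene that was higher was Itpkc, another IP3 kinase, named after its values were seen (0.48, adjusted p = 0.0247, in Q175_TyrobpKO vs TyrobpKO).

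Of 13 tested genes that fill or buffer the store, 2 were lower and 1 higher in Q175 vs WT. Hsp90b1, a chaperone of the endoplasmic reticulum, fell from 299.6 ± 23.6 to 249.2 ± 18.3 CPM (-0.27, adjusted p = 0.00330), and in Q175_TyrobpKO vs TyrobpKO by 0.27 (adjusted p = 0.00503). Rcn1, a calcium-binding protein of the store, fell by 0.58 in Q175 vs WT (adjusted p = 0.00677). Tmx1, a redox protein that acts on SERCA, rose by 0.18 (adjusted p = 0.0359), a call that 9 of the 24 fits without a single library did not keep.

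Among 14 tested genes of store-operated calcium entry, 2 were higher and none lower in each contrast of the Q175 allele. Trpc7, a cation channel of the plasma membrane, ranged from 3.81 to 6.22 CPM in WT and from 6.55 to 9.88 CPM in Q175 without overlap, and rose by 0.75 (adjusted p = 0.00263). Tmem110, which encodes the STIM activator also called STIMATE, rose by 0.21 in Q175 vs WT (adjusted p = 0.0167; 0.0944 without the filter on low counts and 0.0683 with only the 12 libraries compared) and by 0.28 in Q175_TyrobpKO vs TyrobpKO (adjusted p = 0.00276). None of 8 other release channels and leak proteins passed in any contrast with edgeR or DESeq2.

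Of 20 tested genes that remove calcium from the cytosol, 4 were lower and 2 higher in Q175 vs WT. The plasma membrane pump gene Atp2b1 ranged from 1519 to 2150 CPM in WT and from 1058 to 1356 CPM in Q175 without overlap, and fell by 0.60 (adjusted p = 2.75e-05); it also fell in Q175_TyrobpKO vs TyrobpKO (-0.45, adjusted p = 0.00156). Atp2b2, another such pump, fell from 1016 ± 71.2 to 773 ± 80.6 CPM (-0.39, adjusted p = 2.75e-04). Slc8a2, a sodium-calcium exchanger, fell by 0.41 (adjusted p = 0.00151), and Mcu, the mitochondrial calcium channel, named after its values were seen, rose by 0.24 (adjusted p = 0.00252).

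**Figure D5:**
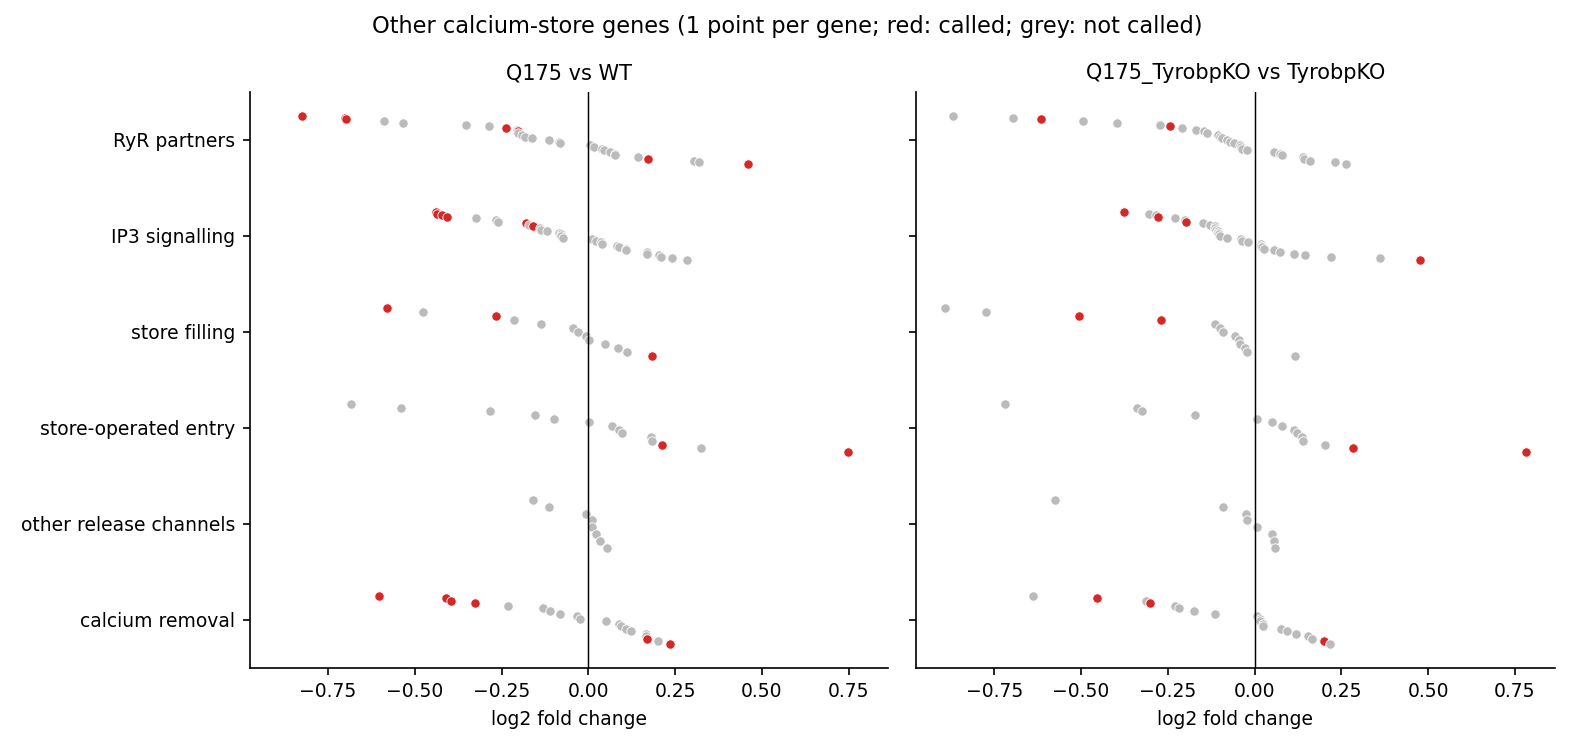
Log2 fold change (x axis) of the 115 other calcium-store genes by list (y axis) in both contrasts of the Q175 allele, 1 point per gene, red where the adjusted p over all genes tested was under 0.05. Red points number 24 in Q175 vs WT and 13 in Q175_TyrobpKO vs TyrobpKO, and none lies among the other release channels.

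The genes whose log2 CPM was most like that of Ryr1 over the 24 libraries were Fam98c (Pearson's r = 0.879), Gm36737 (0.875), Bmp2 (0.872), the member Itpr1 (0.854) and Rgs4 (0.848). These r values are descriptions; the libraries share genotypes, and r therefore holds the genotype differences. Fam98c and Gm36737 lie on chromosome 7, and Fam98c starts 0.149 Mb from Ryr1. Among the other members, r with Ryr1 was 0.701 for Ryr3 and 0.034 for Ryr2. After the mean of each genotype and sex was subtracted, Syn3 (0.874), Papln (0.860), Slit3 (0.853), Cd163 (0.847) and Dgki (0.841) were most like Ryr1. Among the members, Ryr3 (0.768), Itpr3 (0.737) and Itpr1 (0.706) were then most like it and Stim2 (-0.26) least. The part of tissue composition in these r values was not tested.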

How the data were processed

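Striatal RNA of 24 mice was sequenced by a commercial provider after Trizol extraction from the striatum of a single hemisphere, per the labels' protocols. The authors deposited raw read counts per gene, whole numbers with no normalization. STAR, featureCounts and DESeq2 are named without versions, per the submitters' processing notes, together with the human build GRCh38; gene identifiers and coordinates are of mouse, and all 10 members have the coordinates of GENCODE M21 (GRCm38). The deposited gene length equals the union of exons for 9 of 10 members. Use of strand in counting is not given in the sources used here.

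Counts were fitted with edgeR 4.0.16 (R 4.3.3): TMM scaling, filterByExpr on genotype, a mean per genotype plus a term for sex over all 24 libraries, and a robust quasi-likelihood test. Calls are adjusted p-values (Benjamini-Hochberg, all 19667 tested genes) under 0.05. The p-values measure the spread between animals. Sex differences came from a fit with a mean per genotype and sex. The script was tested on simulated data. Alternatives were DESeq2 1.42.0, limma-voom (limma 3.58.1), RLE size factors, no filter, fewer libraries, no sex term, each sex alone and each library left out. Likeness used log2 CPM with an offset of 0.5.

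The 10 members, the gene lists and the marker lists were chosen with earlier results of these data known. Named were all members, and from each list the 3 called genes of smallest p in Q175 vs WT and 1 in each other contrast, except for a gene not reported here. Named too were Tyrobp, the 3 nearest genes on each side of Ryr1, the genes called in TyrobpKO vs WT within 2 Mb, and the 5 genes most like Ryr1 by either measure. Of the listed genes Trdn, Tespa1, Sln and Mrln had too few reads to be tested, and Itprip and Strit1 had no single row. The 60 pairs of libraries of a genotype differed by 6.89 to 42.6 in mean chi-square per gene, so none repeated another.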

Additional observations from a re-analysis of the deposited data

Results flagged for a closer look

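The Atp2a2 level of WT replicate 6, 1096 CPM, lay apart from the other 5 WT libraries, which ranged from 1215 to 1285 CPM. Its gap to the nearest of them made up a share of 0.630 of the range of the group, above the 95% critical value of Dixon's test for 6 values. Of 40 groups of 6 libraries tested in this way this was the only such value, and chance gives about 1 in 20. Without that library Atp2a2 in Q175 vs WT kept its direction and its call.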

How the results depend on the processing

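Of the 10 calls on members, 302 of 320 values under alternatives kept direction and call, 18 kept direction only and none changed sign; of the 40 member results not called, 1209 of 1270 values kept both, 7 passed and 54 changed sign. DESeq2 called 52 genes in Q175_TyrobpKO vs Q175, and 2 genes and 1 member in the interaction. With males only, 759, 65, 11 and 104 genes passed in Q175 vs WT, TyrobpKO vs WT, Q175_TyrobpKO vs Q175 and Q175_TyrobpKO vs TyrobpKO, with 1 member in the last; with females only it was 187, 8, 11 and 290 genes, with 2, 1, 0 and 2 members. These fits hold 12 libraries. Without the filter 4 genes passed for the sex difference of TyrobpKO vs WT. With single libraries left out, the interaction had 0 to 2 genes and 0 to 1 members. Causes were not tested.

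Signs of uncalled results changed as follows, on the log2 scale. Itpr3 in TyrobpKO vs WT became -0.0025 (DESeq2), -0.0021 (RLE), -0.0026 (no filter), -0.0022 (12 libraries) and -0.0064 (males). With males only, Itpr2 and Atp2a3 in Q175 vs WT became 0.036 and 0.022, Stim2 in Q175_TyrobpKO vs Q175 0.074 and in the interaction 0.0068, and Ryr3 in Q175_TyrobpKO vs TyrobpKO 0.13. With females only, Atp2a2 and Atp2a3 in TyrobpKO vs WT became 0.019 and 0.12, Itpr2, Atp2a2 and Atp2a3 in Q175_TyrobpKO vs Q175 0.026, -0.060 and 0.16, Atp2a3 in Q175_TyrobpKO vs TyrobpKO -0.027, and Ryr2 and Atp2a2 in the interaction 0.051 and -0.079. With RLE size factors Itpr1 and Atp2a2 in females vs males became -0.0021 and -0.0021.

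With single libraries left out, ranges that crossed 0 were, for Q175_TyrobpKO vs Q175, Atp2a2 -0.031 to 0.051, Atp2a3 -0.086 to 0.028, Itpr2 -0.100 to 0.029, Ryr3 -0.16 to 0.0029, Stim2 -0.070 to 0.044 and Hspb6 -0.0049 to 0.10. For Q175 vs WT they were Atp2a3 -0.094 to 0.042 and Itpr2 -0.077 to 0.052. For TyrobpKO vs WT they were Itpr3 -0.078 to 0.045, Gm26604 -0.22 to 0.22 and Gm44699 -0.87 to 0.059, and for the interaction Atp2a2 -0.015 to 0.068 and Ryr2 -0.13 to 0.070. No paired analysis was possible because the labels give no replicate numbers shared between genotypes. Read totals were smallest for Itpr3 and Atp2a3 among the members, with as few as 1077 reads of Itpr3 in the Q175 group; how far depth limits precision was not tested.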
